A study of Mus musculus with 157 samples.

Results

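The proteasome subunit genes described here are the protein-coding genes whose symbol begins with Psma, Psmb, Psmc, Psmd, Psme, Psmf or Psmg followed by a number. The rule uses names alone and no measured value, and it found the same 50 of 24940 genes in each of 8 expression tables from mouse macrophages. By role they were 8 genes of the 20S alpha ring, 7 of the constitutive beta ring, 4 beta genes of the immunoproteasome and thymoproteasome, 6 ATPases and 11 non-ATPase subunits of the 19S particle, 3 assembly chaperones of the 19S base, 4 of the 20S core, 5 activator genes and the inhibitor gene Psmf1. The remaining gene, Psmc3ip, shares the symbol but is a meiotic recombination factor and no subunit. Psmb11, the beta subunit of the thymus, did not exceed 0.194 TPM (a transcript level scaled for transcript length and library depth) in any library and was not tested, which left 49 members in every test.

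The proteasome is the barrel-shaped protease that degrades ubiquitin-tagged proteins. Its 20S core is built of stacked alpha and beta rings, and the proteolytic sites lie in the beta subunits Psmb5 (chymotrypsin-like), Psmb6 (caspase-like) and Psmb7 (trypsin-like). In cells exposed to interferon these are exchanged for the immunoproteasome subunits Psmb8, Psmb9 and Psmb10, which favour peptides that fit MHC class I molecules. The 19S particle caps the core: its Psmc ATPases unfold substrates and its Psmd subunits recognise ubiquitin, remove it (Psmd14) and hold the lid together (Psmd11 and Psmd12 among them). Psme1 and Psme2 encode the interferon-inducible PA28 activator, Psme3 the nuclear PA28 gamma, and Psme4 the PA200 activator. When proteasome capacity falls short, the transcription factor Nrf1 (Nfe2l1) raises subunit genes together, and its relative Nrf2 (Nfe2l2) does so under oxidative stress, both through the antioxidant response element.

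The study exposed bone marrow-derived macrophages to particles and asked which transcriptional programmes follow their uptake. Control cells received PBS; the others received 250 µg/mL of monosodium urate crystals (MSUc, the crystals of gout), calcium pyrophosphate dihydrate crystals (CPPD, the crystals of pseudogout), silica nanoparticles or the aluminium hydroxide adjuvant alum. A time course of MSUc and PBS at 10 min, 30 min, 1 h, 2 h and 5 h held 2 libraries per group; exposure times of the other experiments are not given in the labels. The particle experiment held 3 PBS, 3 MSUc, 3 CPPD, 2 silica and 2 alum libraries. The Tfe3 experiment held 3 libraries per group of wild-type (Tfe3WT) and Tfe3KO cells with PBS, MSUc, CPPD and silica. The Tfeb experiment held 2 TfebWT libraries with PBS and 3 in each other group of TfebWT and of the Tfeb transgenic line Tfeb-Tg (TfebTg), whose promoter the labels do not name. The Bhlhe experiment held 2 libraries per group of wild-type, Bhlhe40-/- (B40KO) and Bhlhe41-/- (B41KO) cells with PBS and MSUc. The AMPK experiment held 3 libraries per group of Ampka1KO and congenic wild-type (Ampka1WT) cells from mice 7 to 8 weeks old, with PBS and MSUc. The culture medium of the AMPK experiment was RPMI (M-CSF at 5 ng/mL), that of all others DMEM (M-CSF at 16 ng/mL). In the drug experiments, cells had vehicle or 1 µM SGC0946, an inhibitor of the histone H3K79 methyltransferase DOT1L, from the start of culture, or vehicle or metformin from one day before the particles, each followed by PBS or MSUc. Each of these groups had 3 libraries except SGC0946 with PBS, which had 2.

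Libraries held 2.12 to 22.11 M reads in the tables. The 8 macrophage markers chosen for a check (Csf1r, Adgre1, Itgam, Cd68, Lyz2, Mrc1, Mertk and Fcgr1) were all expressed. They summed to between 15742.2 and 39735.7 TPM in PBS libraries of control cells, and to between 7317.2 and 39404.7 TPM in all other libraries. T cell, B cell and NK cell markers summed to at most 17.7, 6.8 and 1.0 TPM in any library, and mast cell and erythroid markers to at most 29.3 and 5.8. Dendritic cell markers summed to at most 6.7 TPM in PBS libraries of control cells and 37.3 in the others. In control cells of all 8 experiments they were higher with MSUc than with PBS, at 5 h for example 4.64 to 5.49 against 0.681 to 1.08 TPM. Their part in the MSUc results was not tested. Fibroblast and neutrophil markers were higher, with sums of up to 3040.8 and 1656.3 TPM, and are given beside the results they move with. Bhlhe40 was at 5.59 to 17.1 TPM in libraries labelled B40KO and at 57.8 to 313 TPM in wild-type ones, and Tfeb was at 75.1 to 299 TPM in TfebTg and at 25.5 to 44.4 TPM in TfebWT. Tfe3 was lower in libraries labelled Tfe3KO than in Tfe3WT with PBS (66.7 to 70.0 against 94.2 to 104 TPM), CPPD (85.4 to 97.7 against 98.4 to 108) and silica (31.1 to 43.2 against 52.3 to 57.8), and higher with MSUc (84.9 to 87.3 against 79.7 to 83.3). Bhlhe41 was lower in B41KO than in wild type with MSUc (49.5 to 50.3 against 90.1 to 94.9 TPM) and at 46.3 to 49.8 against 49.8 to 55.9 TPM with PBS. Prkaa1, which encodes AMPK alpha 1, was no lower in libraries labelled Ampka1KO (24.3 to 31.0 TPM) than in wild type (21.2 to 25.4). A value summed over a whole transcript need not show the loss of a deleted part, so the Prkaa1 values and those of Tfe3 with MSUc do not check the genotype, and the libraries are called by their labels below. Libraries are not stated to come from separate animals, so p-values measure the spread between libraries, which may be technical. In bulk RNA, fewer cells of a type and less RNA per cell cannot be told apart.

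RefSeq promoters (250 bases before to 50 after the transcription start, GRCm38.p6) were found for 42 of the 50 members. Those of Psmd8, Psmd11, Psmb6 and Psmd12 are shown as examples of genes that rose with MSUc in all 8 experiments (in 7 for Psmb6), and that of Psmb9 because it fell in all 8; Psmd14, which also rose in all 8, is not shown. Capitals mark matches to the antioxidant response element core TGACNNNGC, searched on both strands; in Psmd12 the match lies on the opposite strand.
Psmd8 (chr7:29180624-29180923, minus strand): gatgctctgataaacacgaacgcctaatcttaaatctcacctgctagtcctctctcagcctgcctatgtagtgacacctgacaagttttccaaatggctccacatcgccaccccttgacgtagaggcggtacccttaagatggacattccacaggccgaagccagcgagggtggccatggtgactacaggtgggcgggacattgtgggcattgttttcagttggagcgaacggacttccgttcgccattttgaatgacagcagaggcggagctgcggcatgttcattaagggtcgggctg
Psmd11 (chr11:80428365-80428664, plus strand): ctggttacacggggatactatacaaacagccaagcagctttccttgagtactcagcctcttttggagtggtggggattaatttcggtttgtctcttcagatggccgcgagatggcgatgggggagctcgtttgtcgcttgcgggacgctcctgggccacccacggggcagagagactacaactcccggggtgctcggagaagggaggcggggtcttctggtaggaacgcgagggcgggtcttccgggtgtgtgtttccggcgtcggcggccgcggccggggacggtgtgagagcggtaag
Psmb6 (chr11:70525107-70525406, plus strand): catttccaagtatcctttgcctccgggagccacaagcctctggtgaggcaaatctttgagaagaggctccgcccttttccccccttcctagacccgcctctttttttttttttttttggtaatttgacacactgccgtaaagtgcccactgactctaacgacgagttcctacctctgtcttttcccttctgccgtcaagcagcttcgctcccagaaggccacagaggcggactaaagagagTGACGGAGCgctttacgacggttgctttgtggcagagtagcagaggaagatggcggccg
Psmd12 (chr11:107479278-107479577, plus strand): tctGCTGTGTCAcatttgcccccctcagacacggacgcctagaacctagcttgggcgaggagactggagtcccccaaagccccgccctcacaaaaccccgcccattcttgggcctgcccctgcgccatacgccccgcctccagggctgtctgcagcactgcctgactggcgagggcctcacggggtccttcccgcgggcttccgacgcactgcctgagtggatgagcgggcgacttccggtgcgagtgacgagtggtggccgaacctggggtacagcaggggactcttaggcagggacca
Psmb9 (chr17:34187281-34187580, minus strand): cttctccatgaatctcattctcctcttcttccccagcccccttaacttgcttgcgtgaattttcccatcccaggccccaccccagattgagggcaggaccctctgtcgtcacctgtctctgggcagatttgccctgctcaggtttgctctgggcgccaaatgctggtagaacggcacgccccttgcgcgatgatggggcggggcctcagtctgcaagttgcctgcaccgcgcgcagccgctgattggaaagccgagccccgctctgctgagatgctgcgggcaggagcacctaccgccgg

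The 42 members had 45 promoters, and the shares given for members are by gene, those for all by promoter. The antioxidant core TGACNNNGC was present in promoters of 6 of 42 members (14.3%) and in 12.4% of 32851 promoters of this length. The 6 were those of Psmb5, Psmb6, Psmc6, Psmd12, Psmd9 and Psme4, so the windows of Psmd8 and Psmd11 do not hold these letters. The interferon-type repeat GAAANNGAAA was in promoters of 5 members (11.9%, against 3.44% of all promoters): Psmb3, Psmd4, Psmd9, Psme1 and Psmg4. The gamma-activated sequence TTCNNNGAA was in 3 (7.14%, against 8.3%), among them Psmb8, and the E-box CACGTG, the core of the lysosomal element bound by TFEB and TFE3, in 4 (9.52%, against 7.15%): Psma4, Psmb10, Psmd9 and Psme3. The patterns are not exclusive, since GAAANNGAAA and TTCNNNGAA can share letters, and a match is a description of sequence only.

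In PBS, the proteasome genes of control cells covered a wide range of transcript levels. Over 29 control PBS libraries the highest median was that of Psmd8, a 19S lid subunit, with 258 TPM (range 173 to 336), followed by the beta ring genes Psmb4 (148, range 121 to 177) and Psmb6 (148, range 115 to 225) and the alpha ring gene Psma1 (140, range 87.5 to 195). The ranges of these 4 genes overlapped. The immunoproteasome genes were already expressed at rest: Psmb8 had a median of 98.6 TPM against 64.4 for its counterpart Psmb5, Psmb10 57.8 against 88.1 for Psmb7, and Psmb9 51.5 against 148 for Psmb6. Assembly chaperones were low, with Psmg1 at a median of 10.3 TPM. The alpha subunit gene of the testis, Psma8, had a median of 0.88 TPM.

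MSUc raised some proteasome genes from 2 h on. At 10 min, 30 min and 1 h no member passed an adjusted p of 0.05 in the limma test, where 0.0567%, 0.680% and 3.28% of the 12350 genes tested did; at an unadjusted p under 0.05 the members were 2, 1 and 4. At 2 h, 9 of 49 rose and 4 fell, against 11.2% and 22.3% of all genes. At 5 h, 16 rose and 8 fell, against 16.4% and 32.9% of all genes. The median change of the members at 5 h was 0.14 on the log2(TPM + 1) scale, used for all changes here, and that of all genes was -0.23. Because more genes fell than rose, scaling the libraries to a common median ratio shifted the median of all genes to about 0; with it, 27 members rose and 2 fell at 5 h, and 15 rose and none fell at 2 h.

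Psmd8, Psmd11 and Psmb6 had the largest rises at both times. Psmd8 was at 264 and 233 TPM with PBS and at 250 and 300 with MSUc at 1 h; at 2 h it was 265 and 236 against 384 and 426, and at 5 h 265 and 216 against 573 and 577. Its PBS libraries stayed between 216 and 265 TPM from 1 h to 5 h while the MSUc libraries lay above them from 2 h, and the change was 0.69 ± 0.14 (SE, adjusted p 0.0019) at 2 h and 1.26 ± 0.14 (adjusted p 9.0e-06) at 5 h. Psmd11, the lid subunit, went from 24.8 and 22.7 to 53.1 and 40.4 TPM at 2 h and from 28.6 and 25.5 to 84.1 and 64.4 TPM at 5 h (1.41 ± 0.14, adjusted p 5.7e-06). Psmb6, the caspase-like catalytic subunit, went from 148 and 136 to 220 and 221 TPM at 2 h and from 153 and 135 to 296 and 303 TPM at 5 h (1.06 ± 0.10, adjusted p 3.0e-06). At 2 h and 5 h the PBS and MSUc libraries did not overlap for any of the 3 genes, whereas at 1 h those of Psmd8 did. The other catalytic genes moved less at 5 h: Psmb5 was at 55.6 and 46.9 TPM with PBS and 73.9 and 60.4 with MSUc (0.38 ± 0.13, adjusted p 0.029), and Psmb7 at 92.3 and 85.3 against 114 and 113 (0.35 ± 0.08, adjusted p 0.0038).

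**Figure D1:**
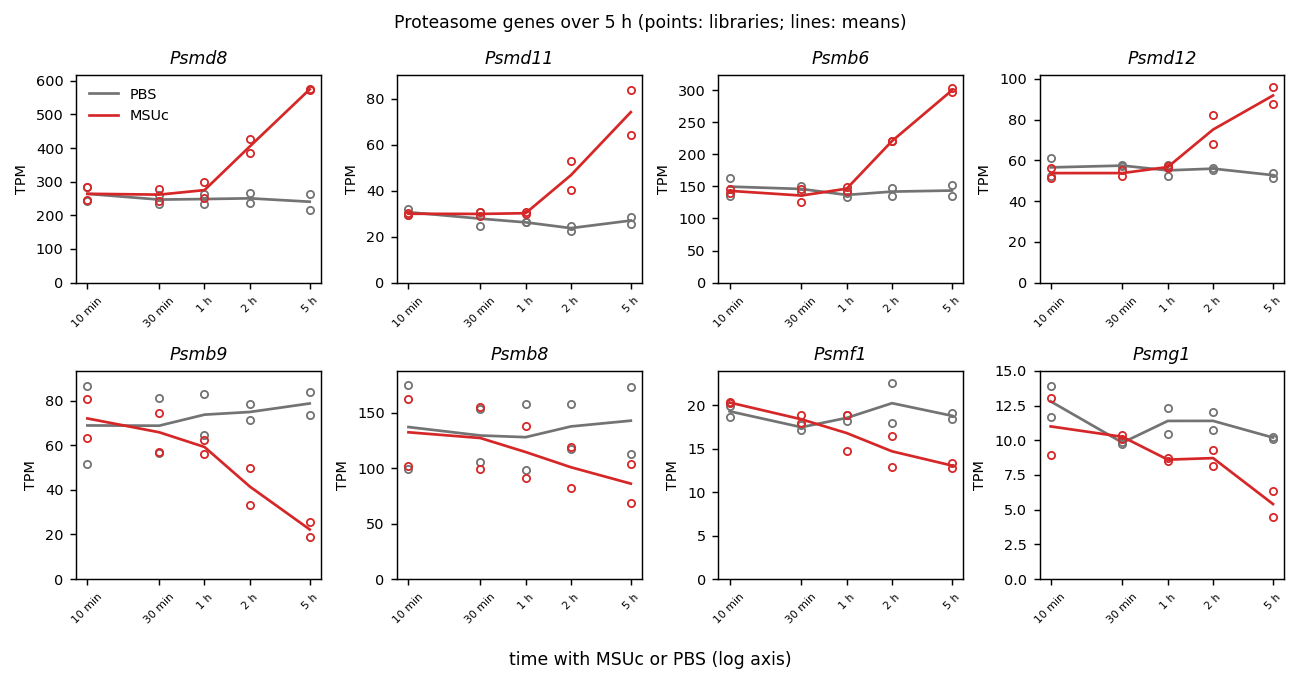
Transcript levels (TPM, vertical axes) of 8 proteasome genes with PBS and with MSUc at 10 min, 30 min, 1 h, 2 h and 5 h (horizontal axes); points are single libraries and lines join the group means. At 5 h Psmd8 reached 573 and 577 TPM with MSUc, above both PBS libraries, while Psmb9 lay at 18.9 and 25.6 TPM, below them.

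The immunoproteasome gene Psmb9 moved the other way. It was at 78.4 and 71.6 TPM with PBS and at 33.4 and 49.7 with MSUc at 2 h (-0.86 ± 0.27, adjusted p 0.027; -0.69 and adjusted p 0.11 with scaling), and at 83.8 and 73.9 against 18.9 and 25.6 TPM at 5 h (-1.79 ± 0.27, adjusted p 1.4e-04). Its share of the Psmb9 and Psmb6 transcripts had a median of 35.5% with PBS and 6.89% with MSUc at 5 h. Psmb8 (173 and 113 TPM with PBS, 68.8 and 103 with MSUc, adjusted p 0.15), Psmb10 (81.2 and 53.0 against 45.9 and 56.5, adjusted p 0.44), Psme1 (153 and 128 against 103 and 113, adjusted p 0.12) and Psme2 (55.9 and 45.7 against 47.9 and 51.1, adjusted p 0.92) did not pass the test in the time course, and Psmb10 and Psme2 overlapped between the groups. For Psmb8 and Psmb10 the 2 PBS libraries stood far apart. Same-numbered libraries deviated in opposite directions at 5 h (r -0.417), and the test used no pairing. Taken crosswise, a choice made after seeing the data, Psmb8 was at 173 against 103 and 113 against 68.8 TPM. Psmb10 was at 81.2 against 56.5 and 53.0 against 45.9 TPM.

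By role, rises were most frequent in the 19S particle. At 5 h, 7 of 11 non-ATPase genes and 4 of 6 ATPase genes rose and none fell (median changes 0.65 and 0.35), among them Psmd12 (51.6 and 53.9 against 96.0 and 87.7 TPM, 0.79 ± 0.10, adjusted p 2.7e-05) and the deubiquitinase Psmd14 (42.5 and 44.1 against 72.6 and 70.9 TPM, 0.72 ± 0.07, adjusted p 2.3e-06). In the constitutive beta ring 3 of 7 rose and 1 fell, and in the alpha ring none of 8 rose and 2 fell (median change 0.02). Of the 4 chaperones that assemble the 20S core, 3 fell, with a median change of -0.62: Psmg1 went from 10.3 and 10.1 to 6.37 and 4.44 TPM (-0.82 ± 0.17, adjusted p 0.0014), and Psmg4 from 27.8 and 24.8 to 16.3 and 16.2 TPM (-0.66 ± 0.24, adjusted p 0.035; 0.23 with scaling). Psmd10, an assembly chaperone also known as gankyrin, rose slightly (27.1 and 25.7 against 32.0 and 32.5 TPM, 0.28 ± 0.10, adjusted p 0.03). Among activators Psme3 rose (48.7 and 49.9 against 66.3 and 63.6 TPM, 0.39 ± 0.09, adjusted p 0.0022), and Psme4 was at 21.0 and 22.6 against 26.0 and 25.2 TPM (adjusted p 0.094). Psmf1, which encodes the proteasome inhibitor PI31, fell from 19.2 and 18.5 to 12.7 and 13.4 TPM (-0.49 ± 0.13, adjusted p 0.0075; -0.25 and 0.22 with scaling).

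At 2 h, the rises were mostly among the 19S non-ATPase genes, where 6 of 11 rose, and no ATPase or alpha ring gene passed. The falls at 2 h were Psmb9, Psmf1 and the chaperones Psmg2 (17.1 and 12.5 against 10.5 and 7.68 TPM, -0.65 ± 0.20, adjusted p 0.022) and Psmg3 (15.5 and 19.8 against 11.7 and 9.51 TPM, -0.68 ± 0.20, adjusted p 0.023). None of these 4 falls passed after scaling. With the 2 h groups fitted alone, 3 members were called, all higher.

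Members rose and fell with MSUc in control cells of all 8 experiments, with the 5 h groups standing for the time course. These experiments share no library, and their counts of risen members ran from 9 to 18 and of fallen members from 5 to 21. In the particle experiment 14 rose and 14 fell, against 18.1% and 44.9% of all genes. In Tfe3WT cells 17 rose and 11 fell (20.0% and 41.6% of all genes), and in TfebWT cells 9 and 12 (12.6% and 32.9%). The TfebWT calls depend on 1 library whose title reads MSUc and whose treatment field reads PBS: counted as PBS, it left 0 of the 21 called, and without PBS replicate 2 the count was 10. In the wild type of the Bhlhe experiment 11 rose and 13 fell (17.1% and 43.4%), and in Ampka1WT cells 9 and 21 (19.7% and 43.9%). With vehicle, 9 rose and 12 fell in the SGC0946 experiment (17.8% and 37.7%), and 18 and 5 in the metformin experiment (19.6% and 34.3%). In Ampka1WT cells and with vehicle in the SGC0946 experiment the share of members that rose, 18.4% in both, was near that of all genes. The median of all genes was between -0.30 and -0.16 in these comparisons and between -0.07 and 0.01 after scaling, with which 13 to 30 members rose and 2 to 11 fell. Macrophage marker sums were lower with MSUc in each of these comparisons, without overlap (at 5 h 11959 to 13593 against 17454 to 24575 TPM). Fibroblast marker sums were higher without overlap with vehicle in the metformin experiment (484 to 616 against 180 to 370 TPM) and the SGC0946 experiment (56.6 to 85.5 against 43.7 to 50.2). In the others they overlapped. The part of these markers was not tested.

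Psmd8, Psmd11, Psmd12 and Psmd14 rose in all 8 experiments, with and without scaling, by 0.74 to 1.37, 0.94 to 1.52, 0.41 to 0.83 and 0.30 to 0.72. These 4 are 8.16% of the members, near the 7.72% of all 11186 genes tested in the 8 experiments that were called higher in each, and with the TfebWT library counted as PBS they were called in 7. Psmb6 rose in 7 experiments (range 0.06 to 1.06), the exception being vehicle in the SGC0946 experiment, where it was at 118, 169 and 146 TPM with PBS and 187, 129 and 137 with MSUc. The ATPase gene Psmc6 (0.39 to 0.83) and the lid gene Psmd7 (0.24 to 0.65) also rose in 7, and Psmd1, a large scaffold of the base, in 6 (0.15 to 0.77). All but Psmb6 are 19S genes.

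Psmb9 and Psmf1 fell in all 8 experiments, by -2.47 to -1.23 and -0.62 to -0.34; they are 4.08% of the members, where 16.8% of all genes were called lower in each. After scaling Psmb9 still fell in all 8 and Psmf1 in 1. Psmb9 was lowest with vehicle and MSUc in the SGC0946 experiment, at 6.66, 6.38 and 6.00 TPM against 30.7, 39.3 and 51.4 with PBS (-2.47 ± 0.17, adjusted p 7.2e-07). The other interferon-inducible members fell less regularly. Psmb8 fell in 7 experiments (range -1.24 to -0.51, 5 after scaling) and Psme1 in 7 (-0.73 to -0.29, 2 after scaling). Psmb10 fell in 4, with and without scaling. Psme2b fell in 5 and Psme2 in 3, and after scaling both fell in 0, with Psme2 rising in 1. Psmb8 fell most in Ampka1WT cells, from 118, 127 and 127 to 48.5, 53.9 and 53.9 TPM (-1.24 ± 0.10, adjusted p 1.1e-06).

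Other members that fell often were the chaperones Psmg1 and Psmg4 (6 experiments each), Psmg2 and Psmg3 (5 each), the alpha ring gene Psma7 (6) and the beta ring gene Psmb1. Psmb1 fell in 7 experiments and rose in 1 (-0.70 to 0.28; 3 falls and 1 rise after scaling). Psmc5 and Psmd2 passed the test in no experiment, and 7 members were called in opposite directions in different experiments. In total, 8 members (16.3%) rose and 8 (16.3%) fell in at least 6 experiments, where 13.3% and 32.4% of all genes did. Longer transcripts of the members tended to have the more positive change. At 5 h members under the median length of 1304.5 bases had a median change of -0.06 and longer ones 0.38. All genes split at the same length had -0.28 and -0.22. The part of transcript length in these results was not tested.

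**Figure D2:**
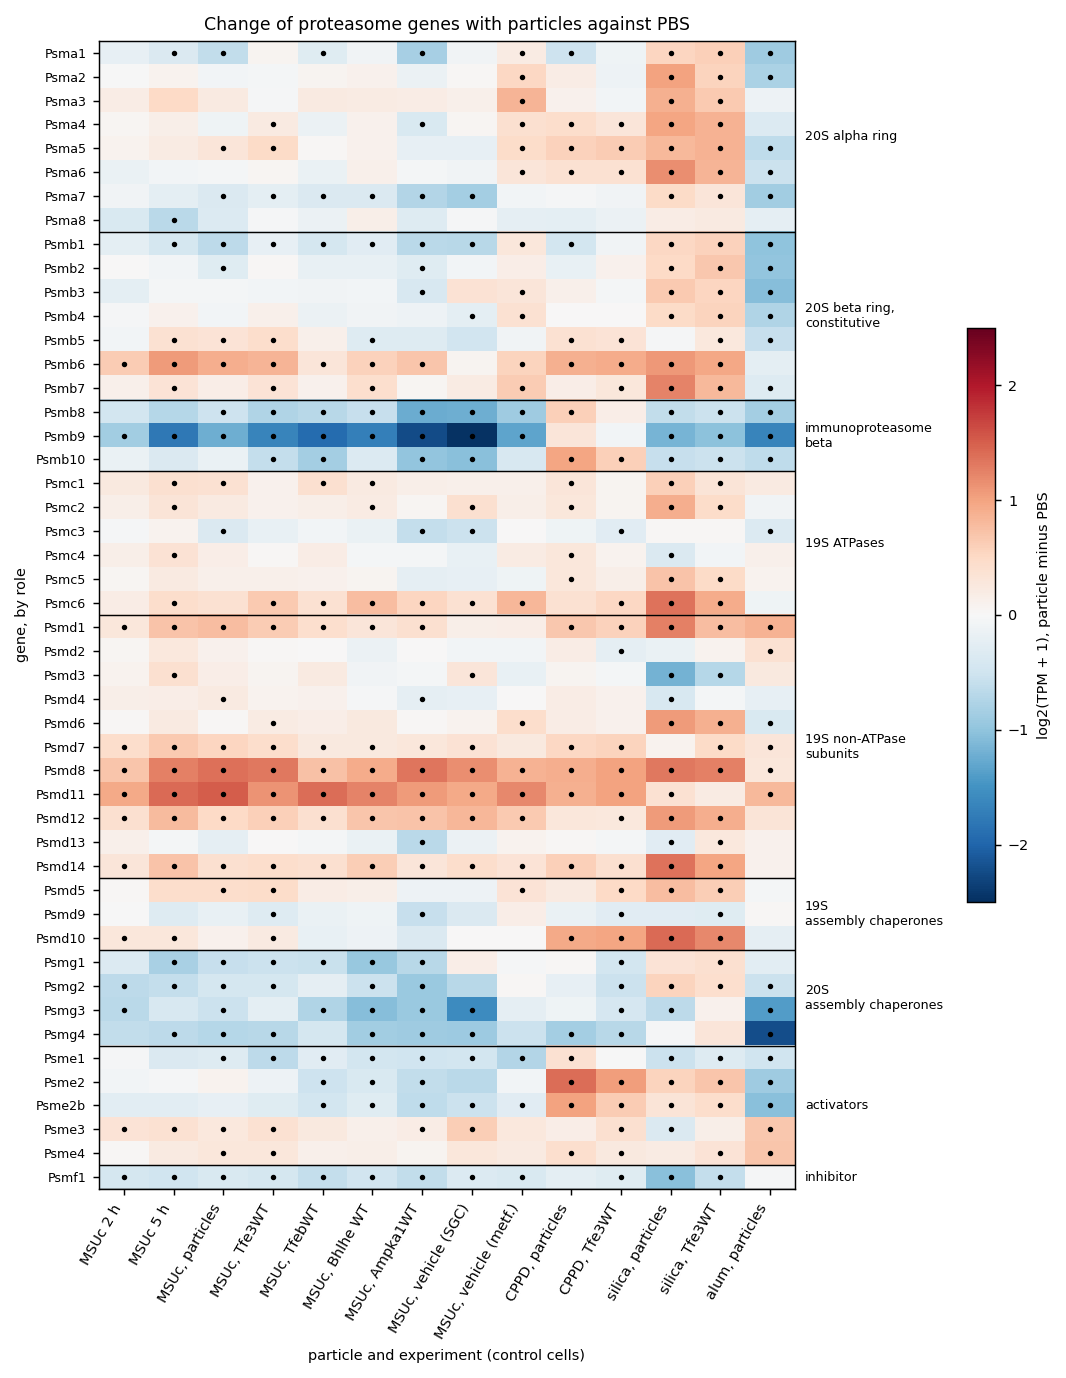
Heat map of the log2(TPM + 1) change of 48 proteasome genes (rows, by role, without Psmb11 and Psmc3ip) in 14 comparisons of particle with PBS in control cells (columns); the colour scale runs from -2.5 to 2.5 and a black dot marks an adjusted p under 0.05. Psmd8, Psmd11, Psmd12 and Psmd14 carry dots for a rise with MSUc at 5 h and in the other 7 experiments, and Psmb9 falls in each of these columns, by -2.47 to -1.23.

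The authors' deposited chromatin tables list sites that gained or lost signal with MSUc, each with its nearest gene. Of their 8 tables, 7 held rows for proteasome genes, 32 rows for 14 genes in all, and 26 of these rows, for 11 genes, were gains. By row these were 5 of 4756 DOT1L peaks gained, 5 of 4446 TFE3 peaks gained and 5 of 5667 TFEB peaks gained. They were also 5 of 2081 regions that gained the active mark H3K27ac and 6 of 1168 that gained the promoter mark H3K4me3. Among losses were 2 of 4208 DOT1L peaks, 4 of 1838 H3K27ac regions and 0 of 868 H3K4me3 regions. By gene, gained DOT1L peaks were nearest to 5 of the 50 members and to 2498 genes in all. For gained TFE3 peaks these were 5 and 2826, and for gained TFEB peaks 4 and 3209. For gained H3K27ac regions they were 4 and 1175, and for gained H3K4me3 regions 4 and 674. Losses were nearest to 2 members and 2722 genes for DOT1L, 2 and 1112 for H3K27ac and 0 and 511 for H3K4me3. The genes measured were 24940.

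Psmb6, Psmd8 and Psmd11, whose transcripts had the largest rises, held 12 of these rows between them. At Psmb6 the authors' deposited tables place a gained DOT1L peak at chr11:70528723-70528952, a TFE3 peak at chr11:70528716-70528944 and a TFEB peak at chr11:70528691-70528937 (mm10, the build named in the submitters' processing notes). The 3 peaks share 215 bases, chr11:70528723-70528937, and the tables list their distances from the Psmb6 start as 3480, 3473 and 3457 bases, past the end of the gene. The region around them, chr11:70527794-70529794, gained H3K27ac (log2 change 1.69, adjusted p 1.4e-07) and H3K4me3 (1.63, adjusted p 8.6e-04) in the authors' deposited tables. At Psmd8, 2 overlapping regions at the start (chr7:29179698-29181698) and in intron 1 (chr7:29178493-29180493) gained both marks. In the authors' deposited tables the H3K4me3 changes there were 1.75 (adjusted p 1.4e-06) and 2.03 (adjusted p 6.2e-12), the latter the largest of any member row, and the H3K27ac changes were 1.24 and 1.21. At Psmd11 H3K4me3 was gained over the promoter (chr11:80427548-80429548, 1.35, adjusted p 9.5e-04) and in intron 1 (chr11:80428348-80430348, 1.62, adjusted p 1.2e-05) in the authors' deposited tables. A TFE3 peak was gained at chr11:80417178-80417400, in intergenic sequence at -11326 bases from the Psmd11 start. By the labels TFE3 binding was assayed in 1 library with MSUc and 2 with PBS, so the TFE3 gains rest on 1 MSUc library.

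Only 7 of the 32 rows lay within 2000 bases of a start. Psmd12 had a TFEB peak gained at chr11:107482510-107482714, 3084 bases after its start. The reduced H3K27ac regions included 1 at the start of the lid gene Psmd13 (-1.08, adjusted p 0.0022 in the authors' deposited table) and 3 before Psma1 (-1.18, -1.05 and -1.18). No row of any table was assigned to Psmb8, Psmb9, Psmb10, Psme1 or Psme2.

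The 4 particles gave different proteasome profiles when compared in one experiment. With MSUc, Psmd11 went from 30.8, 36.1 and 29.0 TPM with PBS to 86.7, 91.7 and 101 (1.52 ± 0.10, adjusted p 2.1e-07), Psmd8 from 185, 188 and 173 to 468, 488 and 461 (1.37 ± 0.07, adjusted p 1.6e-08) and Psmb6 from 122, 132 and 120 to 232, 222 and 252 (0.91 ± 0.09, adjusted p 3.3e-06). Psmb9 fell from 52.0, 52.8 and 44.0 to 25.4, 14.7 and 22.9 TPM (-1.23 ± 0.19, adjusted p 1.2e-04), Psmb1 from 152, 174 and 149 to 101, 96.6 and 101 (-0.66 ± 0.10, adjusted p 9.5e-05) and Psmg4 from 20.6, 28.4 and 22.4 to 12.7, 16.3 and 13.5 (-0.71 ± 0.21, adjusted p 0.013; 0.13 with scaling). None of these groups overlapped. Of the non-ATPase genes 7 of 11 rose, and all 4 chaperones of the 20S core fell. Macrophage marker sums were 27832 to 30582 TPM with PBS, 18411 to 20164 with MSUc, 19087 to 21499 with CPPD, 34608 to 39405 with silica and 16210 to 16354 with alum, and their part in these results was not tested.

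CPPD raised Psmd8 (0.91, adjusted p 7.0e-07), Psmd11 (0.88, adjusted p 2.6e-05) and Psmb6 (0.89, adjusted p 6.6e-06) and, in addition, interferon-inducible members. In the particle experiment 21 members rose and 3 fell, against 16.6% and 35.8% of all genes (35 and 1 after scaling), and in Tfe3WT cells 20 rose and 8 fell, against 18.5% and 41.7% (32 and 1 after scaling). The largest rise was that of Psme2, the beta subunit of PA28, from 42.5, 39.3 and 36.9 TPM with PBS to 114, 110 and 94.7 with CPPD (1.40 ± 0.12, adjusted p 2.5e-06). Its near copy Psme2b, which may take reads from Psme2, went from 89.1, 82.0 and 77.2 to 169, 173 and 160 TPM (1.01 ± 0.10, adjusted p 9.1e-06). Psmb10 went from 54.1, 46.3 and 48.0 to 83.4, 107 and 105 TPM (0.98 ± 0.13, adjusted p 8.7e-05) and Psmb8 from 85.5, 88.2 and 82.7 to 119, 143 and 128 (0.60 ± 0.13, adjusted p 0.0022). Psme1 went from 94.8, 89.8 and 89.3 to 120, 120 and 117 TPM (0.38 ± 0.07, adjusted p 9.8e-04), and Psmb9 was at 58.2, 67.5 and 59.5 TPM (0.31 ± 0.19, adjusted p 0.18; 0.54 and 0.038 with scaling).

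Set directly against MSUc, CPPD left 13 members higher and 2 lower, where 14.8% and 8.86% of all genes were (8 and 2 after scaling). All 3 immunoproteasome genes were higher: Psmb9 by 1.55 ± 0.19 (adjusted p 1.6e-04), Psmb10 by 1.15 and Psmb8 by 1.10. Psme2 (1.31 ± 0.12, adjusted p 4.2e-05), Psme2b (1.20 ± 0.10, adjusted p 3.2e-05) and Psme1 (0.70) were higher as well, and so was Psmd10 (0.85), which went from 23.3, 24.4 and 27.5 TPM with PBS to 52.2, 48.6 and 47.2 with CPPD. The 2 lower members were Psmd11, at 62.5, 62.4 and 54.3 TPM with CPPD (-0.63 ± 0.10, adjusted p 0.0011), and Psmd8, at 327, 364 and 338 (-0.46 ± 0.07, adjusted p 6.1e-04). Psmb6, at 215, 243 and 239 TPM, overlapped with MSUc. The share of Psmb9 in the Psmb9 and Psmb6 pair had a median of 28.6% with PBS, 8.31% with MSUc and 21.3% with CPPD, and that of Psmb10 in its pair with Psmb7 of 37.1%, 31.6% and 52.9%. For Psmb8 with Psmb5 the medians were 52.0%, 35.0% and 53.5%.

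In Tfe3WT cells the CPPD rise of Psme2 recurred (40.3, 34.8 and 28.2 against 74.0, 72.3 and 67.4 TPM, 1.04 ± 0.14, adjusted p 2.7e-06), and so did those of Psmb10 (63.9, 55.6 and 61.0 against 87.1, 97.3 and 88.3 TPM, 0.59 ± 0.10, adjusted p 6.9e-05) and Psmd10 (25.8, 25.1 and 20.2 against 45.9, 49.9 and 47.1 TPM, 0.98 ± 0.09, adjusted p 3.0e-08). Those of Psmb8 (adjusted p 0.19) and Psme1 (adjusted p 0.95) did not pass there; after scaling both did.

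**Figure D3:**
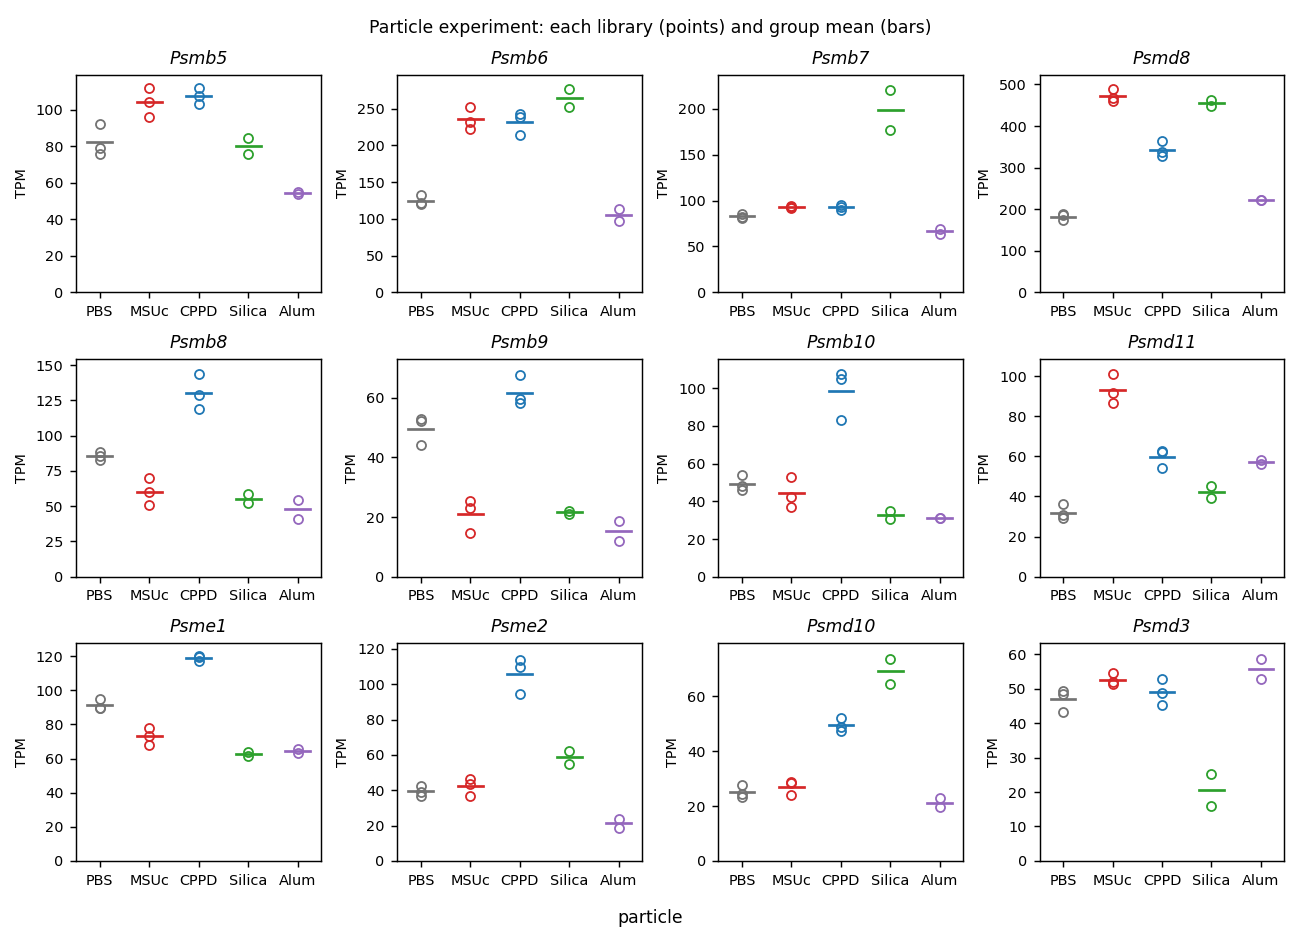
Transcript levels (TPM, vertical axes) of 12 proteasome genes in the particle experiment with PBS, MSUc, CPPD, silica and alum; points are single libraries (2 for silica and alum, 3 for the others) and bars their means. Psmb9 lies at 12.1 to 25.4 TPM with MSUc, silica and alum and at 58.2 to 67.5 TPM with CPPD.

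With silica the rises included most of the 20S core. In the particle experiment 28 members rose and 11 fell, against 24.4% and 43.9% of all genes (35 and 3 after scaling), and in Tfe3WT cells 32 rose and 7 fell, against 28.8% and 37.1% (36 and 6 after scaling). Of the alpha ring 7 of 8 and of the constitutive beta ring 6 of 7 rose (median changes 0.84 and 0.51), none fell, and all 3 immunoproteasome genes fell. Psmb7 went from 85.0, 82.3 and 81.4 TPM with PBS to 176 and 220 (1.24 ± 0.09, adjusted p 8.8e-07) and Psmb6 to 253 and 276 (1.08 ± 0.10, adjusted p 2.7e-06), while Psmb5 stayed within its PBS range of 75.6 to 92.5, at 84.6 and 75.8 TPM (0.35 and adjusted p 0.0091 with scaling). Psmd10 went to 64.4 and 73.6 TPM (1.42 ± 0.11, adjusted p 1.2e-06), the ATPase gene Psmc6 from 45.4, 48.9 and 42.0 to 97.0 and 143 (1.36 ± 0.19, adjusted p 5.4e-05) and Psmd14 from 41.6, 41.3 and 39.6 to 90.1 and 124 (1.35 ± 0.15, adjusted p 8.8e-06). In these genes both silica libraries lay above every PBS library.

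The falls with silica were largest for the lid gene Psmd3, from 48.5, 43.1 and 49.2 to 25.3 and 16.0 TPM (-1.18 ± 0.15, adjusted p 2.7e-05), for Psmb9 (21.0 and 22.1 TPM, -1.16 ± 0.21, adjusted p 3.5e-04) and for Psmf1, from 13.6, 14.4 and 13.9 to 7.13 and 5.47 TPM (-1.04 ± 0.12, adjusted p 1.1e-05). Psmb8 (58.4 and 52.1 TPM), Psmb10 (35.0 and 30.7) and Psme1 (64.1 and 61.3) fell by 0.62, 0.58 and 0.54 and were not called after scaling, whereas Psme2 rose (55.0 and 62.1 TPM, 0.56 ± 0.14, adjusted p 0.0032). In Tfe3WT cells Psmd3 (-0.72), Psmb9 (-1.03) and Psmf1 (-0.59) fell again and Psmd10 (1.21) and Psmd14 (0.98) rose again, each with an adjusted p under 0.05 in 3 libraries per group. Against MSUc, silica left 28 members higher and 11 lower, where 30.3% and 33.3% of all genes were. Higher were Psmd10 (1.32 ± 0.11), the alpha ring gene Psma6 (126, 104 and 101 against 225 and 286 TPM, 1.20 ± 0.12) and Psmb1 (200 and 253 TPM, 1.17 ± 0.11), and lower were Psmd3 (-1.34 ± 0.15), Psmd11 (39.0 and 45.3 TPM, -1.13 ± 0.12) and Psmf1 (-0.66 ± 0.12). Psmd11, which rose most with MSUc, thus rose by 0.39 ± 0.12 with silica (adjusted p 0.0099), whereas Psmd8 rose to 462 and 449 TPM (1.32 ± 0.08, adjusted p 1.7e-07). Neutrophil markers summed to 236 to 339 TPM in the silica libraries and 43.0 to 98.9 with PBS in the particle experiment, and to 1250 to 1656 against 244 to 468 TPM in Tfe3WT cells. Fibroblast markers summed to 83.2 to 122 against 31.6 to 82.0 TPM, and in Tfe3WT cells to 678 to 730 against 472 to 537. The part of these markers in the silica results was not tested.

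Alum lowered most of the core. There 7 members rose and 22 fell, against 27.1% and 19.2% of all genes (5 and 25 after scaling). In the constitutive beta ring 6 of 7 fell (median change -0.75), in the alpha ring 5 of 8 (-0.58), and no gene of either rose; all 3 immunoproteasome genes and 3 of 4 chaperones of the core fell. Psmg4 went from 20.6, 28.4 and 22.4 to 5.87 and 3.07 TPM (-2.22 ± 0.24, adjusted p 1.6e-05), Psmb9 to 12.1 and 18.6 (-1.65 ± 0.21, adjusted p 5.5e-05) and Psmg3 from 19.3, 24.5 and 19.7 to 8.27 and 6.61 (-1.39 ± 0.16, adjusted p 2.8e-05). Psmb5 was at 55.0 and 54.0 TPM, Psmb7 at 68.9 and 63.9, Psmb8 at 41.3 and 54.5, Psmb10 at 31.3 in both libraries and Psme2 at 18.4 and 24.0, all below every PBS library.

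The 7 rises with alum included 5 non-ATPase genes, led by Psmd1 (62.1, 64.7 and 63.8 against 122 and 112 TPM, 0.87 ± 0.11, adjusted p 4.8e-05) and Psmd11 (56.0 and 58.2 TPM, 0.82 ± 0.12, adjusted p 1.3e-04), and the activators Psme4 (22.4, 18.8 and 21.6 against 36.1 and 33.0 TPM, 0.70 ± 0.12, adjusted p 6.5e-04) and Psme3 (46.5, 44.1 and 45.8 against 75.4 and 71.4 TPM, 0.68 ± 0.09, adjusted p 6.4e-05). Changes with alum varied with transcript length: members shorter than 1304.5 bases had a median change of -0.70 and longer ones of 0.11, and all genes, split the same way, -0.55 and 0.15. Across 48 members the change and the length had a Spearman rho of 0.82, and across all 12314 genes tested of 0.49; these points share the same libraries. The part of length in the alum result was not tested.

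**Figure D4:**
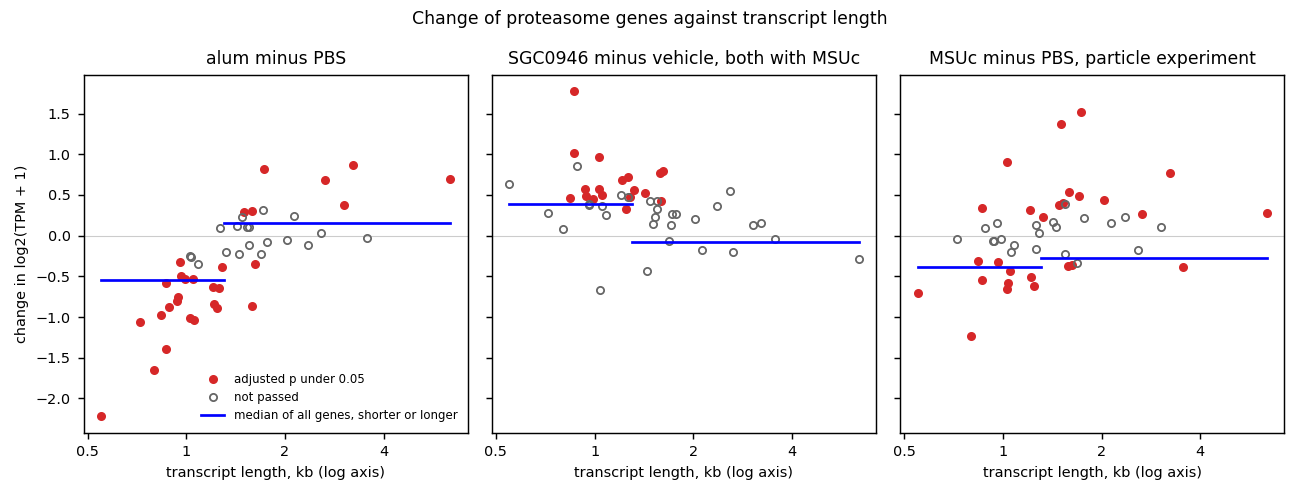
Change in log2(TPM + 1) of the proteasome genes (vertical axes) against transcript length in kb (log horizontal axes). Panels show alum and MSUc against PBS in the particle experiment and SGC0946 against vehicle with MSUc. Red points passed an adjusted p of 0.05 in limma, and blue lines are the medians of all genes below and above 1304.5 bases. With alum, short members lie below 0 and long ones near or above it, as the lines for all genes do at -0.55 and 0.15.

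Other genes of the pathway, taken from lists chosen by function, were read beside the members. Of 9 target genes of Nrf2, 8 rose at 5 h (median change 3.16; the cystine transporter Slc7a11 by 5.04, heme oxygenase Hmox1 by 3.25 and sulfiredoxin Srxn1 by 3.16) and none fell. In the particle experiment 8 of 9 rose with MSUc (median 3.71), 8 with CPPD (2.47), 7 with silica (0.84, 1 fell) and 6 with alum (1.26), and 6 of 9 were lower with CPPD than with MSUc. Nfe2l2, the gene for Nrf2, rose with MSUc at 5 h (0.55, adjusted p 0.015), and Nfe2l1, the gene for Nrf1, did not pass there (0.32 ± 0.21, adjusted p 0.22). With CPPD Nfe2l1 rose (0.77, adjusted p 5.9e-04), with alum it rose (0.59, adjusted p 0.0073), and with silica it fell (-0.82, adjusted p 4.6e-04). Of 10 tested regulators of proteasome genes 5 rose and 2 fell with MSUc at 5 h, with the small Maf genes Maff (4.03) and Mafk (2.17) among the rises and Ngly1 (-1.15), whose enzyme activates Nrf1, among the falls.

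The interferon list was read beside the immunoproteasome genes. With CPPD, 13 of 13 tested interferon genes rose (median 3.37; Irf1 by 2.15, Gbp2 by 4.10 and Gbp5 by 4.79), and 11 of 13 were higher with CPPD than with MSUc (median 1.68; Stat2 by 1.65 and Irf1 by 1.57). With MSUc itself 8 of 13 rose in the particle experiment and none fell (median 1.69), where Psmb8, Psmb9 and Psme1 fell, of which Psmb9 was called after scaling. In the other 7 experiments 2 to 5 of 12 to 14 tested interferon genes rose with MSUc and 0 to 6 fell (medians -0.40 to 0.50). With silica 8 rose and 1 fell (median 2.17) while all 3 immunoproteasome genes fell. Of 12 genes of class I peptide loading, 7 rose with CPPD (median 0.52; the transactivator Nlrc5 by 2.18, Tapbpl by 1.20 and the peptide transporter gene Tap2 by 0.87), 2 with MSUc and 4 with silica, where 6 fell. After scaling 12 rose with CPPD, 6 with MSUc and 5 with silica, where 5 fell.

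Partners of the proteasome that lack a Psm symbol also split. With MSUc at 5 h, 6 of 12 rose and 2 fell, with Zfand5 (2.05), Zfand2a (1.10) and the ubiquitin receptor gene Adrm1 (1.07) among the rises. Pomp, whose product matures the 20S core, fell with MSUc at 5 h (-0.46, adjusted p 0.001) and with alum (-1.27, adjusted p 4.3e-06) and rose with silica (0.74, adjusted p 1.2e-04), the direction most core genes took with alum and silica. Of 13 ubiquitin genes and shuttle factors 5 rose with MSUc at 5 h and none fell, among them the autophagy receptor gene Sqstm1 (2.38), Rad23b (1.06) and Nploc4 (0.80).

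Few proteasome genes differed by genotype, apart from the libraries labelled Ampka1KO. In the Tfe3 experiment no member differed between libraries labelled Tfe3KO and Tfe3WT with PBS, where 2.37% of all genes did (limma; 7 members at an unadjusted p under 0.05). With MSUc 2 differed (10.7% of all genes), with CPPD 1 (8.10%) and with silica 5 (12.5%). The silica count was 1 with only the compared groups fitted or without Tfe3WT replicate 1, and 3 without the filter on low values. Psmd8 was lower in the libraries labelled Tfe3KO with each of the 3 particles. With MSUc it was at 455, 486 and 460 TPM in Tfe3WT and 309, 307 and 310 in Tfe3KO (-0.59 ± 0.07, adjusted p 1.2e-05), with CPPD at 358, 408 and 365 against 257, 257 and 251 (-0.56 ± 0.07, adjusted p 2.7e-05) and with silica at 425, 505 and 413 against 333, 349 and 354 (-0.37 ± 0.07, adjusted p 0.0019). With PBS it was at 183, 203 and 174 against 157, 167 and 149 (-0.24 ± 0.07, adjusted p 0.089), also without overlap. T cell markers summed to 16.2 to 17.7 TPM in Tfe3KO against 7.25 to 10.2 in Tfe3WT with PBS, 7.91 to 11.3 against 5.67 to 6.45 with MSUc, 8.91 to 12.8 against 6.35 to 7.16 with CPPD and 9.69 to 13.9 against 5.36 to 7.19 with silica. Neutrophil markers summed to 231 to 351 against 415 to 568 TPM with MSUc and to 793 to 1093 against 1250 to 1656 with silica, and the part of these markers was not tested.

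The difference of the responses themselves passed for no member in the Tfe3 experiment: 1.73% of all genes passed for MSUc, 0.930% for CPPD and 1.52% for silica, and at an unadjusted p under 0.05 the members were 6, 8 and 9. For Psmd8 with MSUc that difference was -0.35 (adjusted p 0.086). The other member called with MSUc was the base chaperone gene Psmd5, higher in the libraries labelled Tfe3KO (32.7, 32.4 and 32.5 against 38.1, 41.5 and 35.5 TPM, 0.23 ± 0.07, adjusted p 0.034). With silica Psmg3 (17.3, 19.02 and 12.9 against 10.5, 9.65 and 11.0 TPM, -0.60 ± 0.15, adjusted p 0.011), Psmf1 (-0.32), Psmd2 (-0.24) and Psmc4 (-0.20) were lower too; Psmf1, Psmd2 and Psmc4 were not called after scaling. With scaling, 4 members were higher and 2 lower with silica in the libraries labelled Tfe3KO, where 7.66% and 5.02% of all genes were. Without scaling, Psmb6 and Psmd11 were called in none of the 4 comparisons.

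TfebTg differed from TfebWT in 1 member. With PBS none did, against 0.717% of all genes (limma; 2 members at an unadjusted p of less than 0.05), and with MSUc, where 3.48% of all genes did, Psmd11 was lower in TfebTg, at 70.5, 78.9 and 69.4 TPM against 105, 103 and 102 (-0.50 ± 0.08, adjusted p 0.0049). The test of the responses against each other called 0.100% of all genes and no member (2 at an unadjusted p under 0.05), and gave -0.56 ± 0.12 for Psmd11 (adjusted p 0.19). With the TfebWT library of unclear treatment counted as PBS, Psmd11 was not called. With MSUc, mast cell markers summed to 26.6 to 29.3 TPM in TfebTg against 6.49 to 7.48 in TfebWT, T cell markers to 9.60 to 16.7 against 3.33 to 3.78, fibroblast markers to 6.95 to 7.70 against 12.9 to 26.5 and macrophage markers to 10850 to 11083 against 12037 to 12495, and their part in the Psmd11 difference was not tested.

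Neither Bhlhe genotype moved a member past the test. For B40KO 0.0824% of all genes were called with PBS and 0.0165% with MSUc, with 4 and 0 members at an unadjusted p under 0.05 in limma, and for B41KO 2.76% and 1.33%, with 6 and 6 members. The responses to MSUc differed for 0.00824% (B40KO) and 0.132% (B41KO) of all genes, with 2 and 3 members at an unadjusted p under 0.05. With MSUc, Psmd8 was at 585 and 555 TPM in wild type, 579 and 531 in B40KO and 531 and 548 in B41KO, and Psmd11 at 85.1 and 85.0, 76.5 and 75.8, and 76.7 and 76.5.

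In the libraries labelled Ampka1KO, in which Prkaa1 was not lower, Psmd8 rose less with MSUc and Psmb6 was lower with MSUc than with PBS. Psmb6 went from 184, 186 and 182 TPM with PBS to 265, 314 and 326 with MSUc in Ampka1WT, and from 164, 167 and 164 to 134, 117 and 117 in the libraries labelled Ampka1KO. The groups with MSUc did not overlap, and the response differed by -1.13 ± 0.12 (adjusted p 2.3e-05). Psmd8 went from 183, 179 and 182 to 449, 440 and 489 TPM in Ampka1WT and from 207, 188 and 183 to 249, 213 and 251 in Ampka1KO (difference of the responses -1.04 ± 0.11, adjusted p 3.0e-05). Psmd11 was already higher with PBS in Ampka1KO (63.3, 62.3 and 62.8 against 32.2, 39.1 and 38.3 TPM, 0.77 ± 0.08, adjusted p 1.3e-05), and with MSUc was at 86.5, 95.6 and 85.5 against 76.8, 72.9 and 81.8, so its response differed by -0.56 ± 0.12 (adjusted p 0.0023).

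Psmb9 was lower with PBS in Ampka1KO (20.1, 20.3 and 19.3 against 52.3, 57.5 and 54.5 TPM, -1.42 ± 0.10, adjusted p 4.2e-07) and fell less with MSUc, to 8.34, 9.61 and 7.77 against 12.5, 10.3 and 9.96 TPM (difference of the responses 1.10 ± 0.14, adjusted p 1.0e-04). With PBS Psmb8 (64.9, 74.2 and 82.6 against 118, 127 and 127 TPM, -0.74 ± 0.10, adjusted p 9.8e-05) and Psmb5 (71.9, 66.4 and 71.8 against 117, 108 and 100 TPM, -0.62 ± 0.15, adjusted p 0.006) were lower as well, and Psmd7 (0.69 ± 0.10) and Psmc6 (0.68 ± 0.15) were higher. With MSUc, Psmd5 (71.1, 73.1 and 77.8 against 27.4, 26.9 and 27.5 TPM, 1.41 ± 0.07, adjusted p 1.0e-08), Psmg2 (1.30 ± 0.18) and Psmg1 (1.17 ± 0.24) were higher in Ampka1KO, and Psmb6 (-1.29 ± 0.08), Psmd8 (-0.95 ± 0.08) and Psmb5 (-0.85 ± 0.15) lower.

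The counts in this experiment depend on scaling. With PBS 21 members were higher and 5 lower in Ampka1KO, against 33.8% and 13.8% of all genes, and 9 and 7 after scaling. With MSUc 38 were higher and 6 lower, against 51.6% and 20.2%, and 13 and 10 after scaling. For the responses 15 were higher and 3 lower, against 34.7% and 15.9%, and 5 and 4 after scaling; Psmb6 (-1.44), Psmd8 (-1.35), Psmd11 (-0.88) and Psmb9 (0.82) were called with scaling too. Macrophage markers summed to 35614 to 39736 TPM in Ampka1WT and 22158 to 24851 in Ampka1KO with PBS, and to 24847 to 30147 and 7317 to 9584 with MSUc. Fibroblast markers (Col1a1, Col1a2, Col3a1, Dcn and Pdgfrb) summed to 78.8 to 146 and 859 to 1398 with PBS and to 67.6 to 220 and 2414 to 3041 with MSUc. Neutrophil markers summed to 16.4 to 24.9 and 113 to 168, and to 10.7 to 58.9 and 277 to 326. No marker of these 3 lists was at 0 in all libraries, and their part in the Ampka1KO differences was not tested. Of the 9 Nrf2 targets, 7 responded less to MSUc in Ampka1KO and none more.

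**Figure D5:**
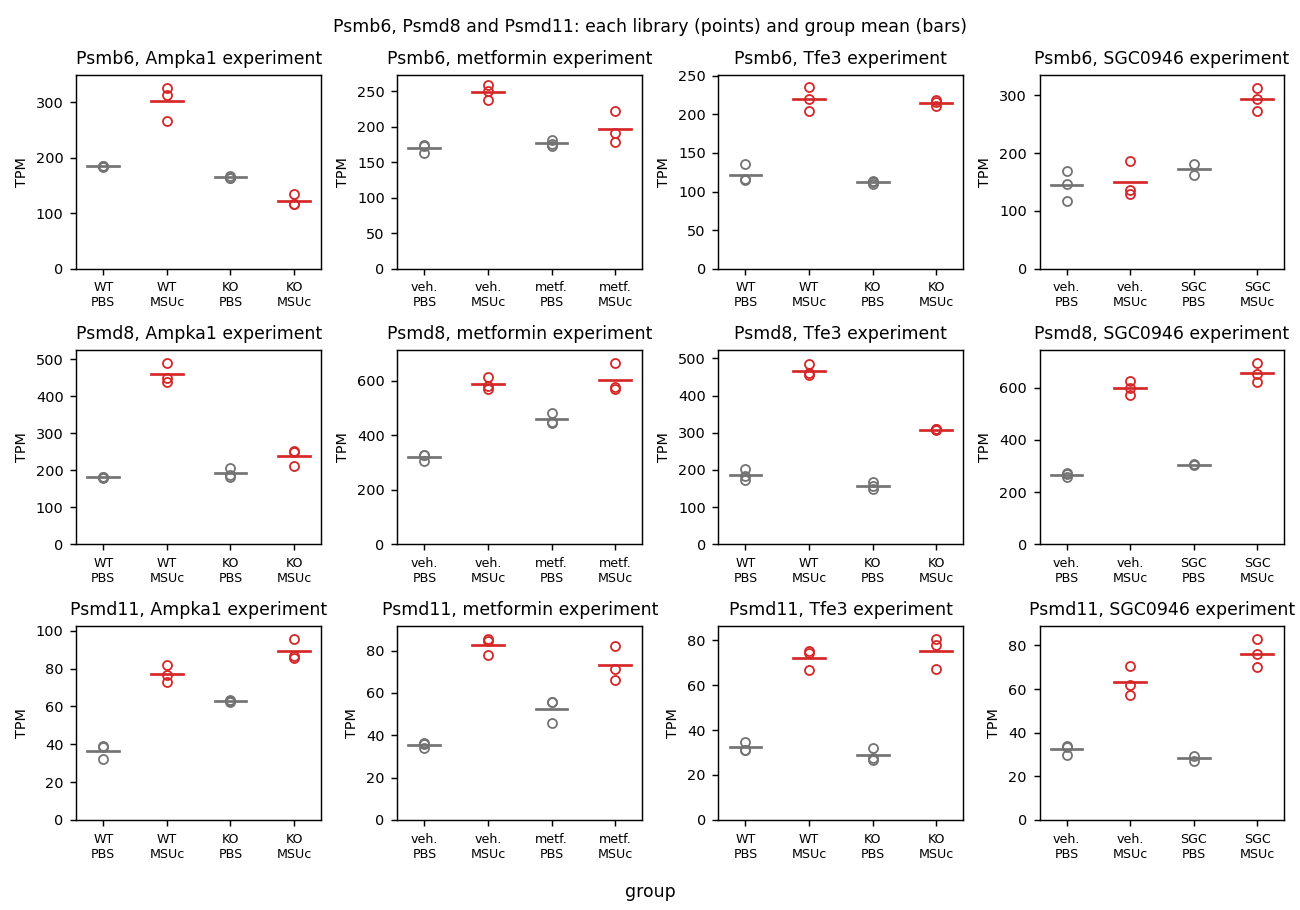
Transcript levels (TPM, vertical axes) of Psmb6, Psmd8 and Psmd11 with PBS and MSUc in the Ampka1, metformin, Tfe3 and SGC0946 experiments; points are single libraries and bars their means. In the Ampka1KO libraries with MSUc, Psmb6 lies at 117 to 134 TPM, below the 265 to 326 TPM of Ampka1WT.

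Metformin, a drug known to activate AMPK among other actions, changed the MSUc response of 3 members, which were again Psmd11, Psmd8 and Psmb6, all with a smaller response; of all genes 7.52% had a higher and 4.72% a lower response. Psmd11 went from 36.2, 35.6 and 33.8 TPM to 85.6, 84.6 and 77.9 with vehicle and from 55.7, 55.5 and 45.8 to 71.1, 81.9 and 66.2 with metformin (difference -0.73 ± 0.14, adjusted p 0.006). Psmd8 went from 326, 329 and 306 to 616, 579 and 569 TPM with vehicle and from 482, 451 and 444 to 667, 571 and 576 with metformin (-0.48 ± 0.11, adjusted p 0.012). The levels of both with MSUc overlapped between the treatments, and those with PBS were higher with metformin (by 0.55 and 0.52). Of the 9 Nrf2 targets, 6 responded less to MSUc with metformin and none more. Psmb6 went from 163, 173 and 174 to 258, 237 and 251 TPM with vehicle and from 181, 173 and 176 to 222, 191 and 178 with metformin (-0.40 ± 0.11, adjusted p 0.04); this call held in 6 of 17 alternative analyses, and those of Psmd11 and Psmd8 in all 17.

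Metformin itself raised 11 members and lowered 6 with PBS, against 23.2% and 16.3% of all genes, and 11 and 6 with MSUc, against 29.6% and 14.0%; after scaling these were 9 and 7, and 5 and 15. Of the 4 core chaperones 2 were higher with PBS and 3 with MSUc, and Psmg3 passed in neither: with PBS Psmg2 (14.2, 12.6 and 13.5 against 25.8, 23.0 and 23.8 TPM, 0.81 ± 0.14, adjusted p 6.3e-04) and Psmg1 (11.2, 8.34 and 9.98 against 16.1, 17.4 and 16.0 TPM, 0.70 ± 0.13, adjusted p 9.9e-04), and with MSUc Psmg2 (0.98 ± 0.14), Psmg4 (0.88 ± 0.25) and Psmg1 (0.74 ± 0.13). Psmd14 was higher with PBS (53.3, 44.9 and 52.8 against 81.5, 80.2 and 83.9 TPM, 0.69 ± 0.09, adjusted p 5.6e-05). The interferon-inducible members were lower: with PBS Psmb9 (29.9, 32.2 and 30.7 against 16.1, 22.1 and 16.5 TPM, -0.75 ± 0.26, adjusted p 0.039), Psme2 (-0.60 ± 0.18) and Psme1 (-0.55 ± 0.16), and with MSUc Psme2 (31.9, 36.7 and 31.1 against 15.8, 23.1 and 18.4 TPM, -0.78 ± 0.18, adjusted p 0.0044) and Psmb10 (-0.56 ± 0.20, with overlap). Psmd1 was lower with MSUc (76.0, 72.9 and 76.7 against 52.7, 51.0 and 57.5 TPM, -0.48 ± 0.07, adjusted p 1.8e-04). Macrophage markers summed to 22853 to 25714 TPM with vehicle and PBS, 18169 to 21397 with vehicle and MSUc, 11357 to 12920 with metformin and PBS and 12481 to 15038 with metformin and MSUc. Mast cell markers summed to 1.39 to 1.67 TPM with vehicle and 12.1 to 15.8 with metformin in PBS, and to 2.46 to 6.04 and 10.9 to 19.7 with MSUc. Fibroblast markers summed to 180 to 370 TPM with vehicle and 74.6 to 226 with metformin in PBS, and to 484 to 616 and 160 to 350 with MSUc; neutrophil markers summed to 13.7 to 58.2 and 2.46 to 10.8 in PBS. The part of these markers in the metformin results was not tested.

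With SGC0946, 18 of 49 members were higher in the presence of MSUc. With PBS no member differed from vehicle (limma; 0.673% of all genes, 10 members at an unadjusted p under 0.05). With MSUc no member was lower with SGC0946 and 31 did not pass (limma), where 7.39% of all genes were higher and 9.24% lower, and the median difference was 0.39 for members and -0.03 for all genes. The beta ring (5 of 7), the alpha ring (4 of 8), the ATPases (3 of 6) and the non-ATPase genes (3 of 11) contributed. Psmb6 was at 187, 129 and 137 TPM with vehicle and 294, 272 and 314 with SGC0946 (0.97 ± 0.15, adjusted p 0.0027), and Psmb5 at 49.6, 25.9 and 44.7 against 96.0, 65.8 and 76.7 (1.01 ± 0.21, adjusted p 0.0098). Psmc3 (0.80), Psma7 (0.77) and Psmb8 (0.68) were also higher. Psmd8 (0.14, adjusted p 0.10) and Psmd11 (0.27, adjusted p 0.084) did not pass.

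Psmg3 had the largest difference with SGC0946, at 8.34, 0.588 and 7.37 TPM with vehicle and 14.9, 17.9 and 15.9 with SGC0946 (1.78 ± 0.53, adjusted p 0.045). Its lowest value rests on 1 read in a library of 2.83 M reads (another vehicle library with MSUc held 3.54 M), and the call held in 5 of 11 alternative analyses. The response to MSUc itself did not differ for any member (limma; 0.0325% of all genes, 14 members at an unadjusted p under 0.05). Short transcripts were higher with SGC0946 as a whole: members below and above 1304.5 bases had median differences of 0.48 and 0.25, and all genes 0.39 and -0.08, with a Spearman rho between difference and length of -0.49 over 48 members and -0.45 over all genes. Leaving out single libraries left as few as 11 of the 18 members called. The part of transcript length and of the shallow vehicle libraries in this result was not tested.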

How the data were processed

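Poly-A RNA was sequenced from 115 analysed libraries in 45 groups (20 groups of 2, 25 of 3), assigned by their titles. The deposited expression tables give TPM per gene; STAR, HOMER and mm10 are named in the submitters' processing notes, and versions are not given in the sources used here. The tables do not name the unit in their headers: low values were whole multiples of 1 read (tolerance 0.15 reads), which gave a depth of 2.12 to 22.11 M reads, median 10.1 M. Columns summed to 528079 to 569594 TPM over 24940 genes, 2 columns were not used and 1 labelled alum sample was not analysed here. Among 95 pairs of replicates none was identical.

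Each table was fitted alone with limma 3.58.1 (R 4.3.3, eBayes with trend) on log2(TPM + 1), all groups together, for genes that reached 1 TPM in a number of libraries equal to the smallest group; Benjamini-Hochberg adjustment ran over all genes tested and 0.05 was the threshold. The script was tested on simulated data. Alternatives were a pseudocount of 0.25, no filter, median-of-ratios scaling, the compared groups only, a replicate block, each library left out, and 1 TfebWT library counted by its treatment field; 2 more were chosen after seeing the data. Shared replicate numbers were checked in 45 comparisons by the correlation of deviations from the group means. Among comparisons with 3 pairs, every pair exceeded 0.1 in 3, all particles against PBS in the Tfe3 experiment. Of these only CPPD in Tfe3WT is reported (0.118 to 0.186), and with the block its counts were the same, 20 and 8. With 2 pairs, values also exceeded 0.1 for MSUc at 10 min (0.481) and MSUc in B40KO (0.139). They did so for B40KO against wild type with PBS (0.118) and with MSUc (0.14).

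The members and all lists were chosen with earlier results of these data known. Tfe3WT libraries carry Tfe3KO in their genotype field, and their titles were used. Every member is named by role; values per library are given for the catalytic pairs, the activators, Psmf1, Psmd10, Psmg1 and, in a comparison described, up to 3 called members per direction with the largest change and a mean of at least 5 TPM, and pathway lists are given as counts with up to 3 genes of smallest adjusted p. In the chromatin tables the authors deposited log2 changes and adjusted p-values for histone regions and positions for factor peaks, which were copied and counted by nearest gene. Reads of Psme2 and its near copy Psme2b cannot be told apart with certainty.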

Additional observations from a re-analysis of the deposited data

Results flagged for a closer look

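The responses of 18 proteasome genes to MSUc differed between libraries labelled Ampka1KO and Ampka1WT by the test of the difference itself (limma, adjusted p under 0.05; values are differences of log2 changes). Of the members 30.6% were higher and 6.12% lower, where 34.7% and 15.9% of all genes were. Smaller or reversed rises in Ampka1KO were found for Psmb6 (-1.13), Psmd8 (-1.04) and Psmd11 (-0.56). Falls were smaller, or changes higher, for Psmb9 (1.1), Psmg2 (1.09), Psmb1 (0.89), Psmd13 (0.79), Psmd5 (0.75), Psma7 (0.64), Psma4 (0.62), Psma2 (0.59), Psma6 (0.52), Psmf1 (0.51), Psma1 (0.47), Psmg3 (0.42), Psme4 (0.4), Psmb2 (0.39) and Psmd6 (0.33). After median-of-ratios scaling 8 of the 18 were still called, namely Psmb6 (-1.44), Psmd8 (-1.35), Psmd11 (-0.88), Psmb9 (0.82), Psmg2 (0.82), Psmb1 (0.57), Psmd13 (0.48) and Psmd5 (0.44). Marker sums of other cell types differed between these groups as given above, and their part was not tested.

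With metformin the responses of Psmd11 (-0.73), Psmd8 (-0.48) and Psmb6 (-0.4) to MSUc were smaller than with vehicle by the same test, and all 3 were called after scaling (-0.83, -0.57 and -0.49). The Psmb6 call held in 6 of 17 alternative analyses, those of Psmd11 and Psmd8 in all 17.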

How the results depend on the processing

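Of 44 counts of called proteasome genes, 27 stayed within 1.5 times under every alternative run. Of 258 gene results that were called, 172 were called under every alternative, and of 7690 alternative values 7333 kept direction and side of the threshold, 266 lost the call, 84 gained it and 7 reversed. All 7 reversals came with median-of-ratios scaling: Psmb5 with silica (0.35), Psme3 with silica (0.01), Psme1 with MSUc in the particle experiment and in TfebWT (0 in both), Psme1 with CPPD in Tfe3WT (0.25), and Psmd10 (-0.11) and Psme3 (-0.04) in Ampka1KO against Ampka1WT with MSUc. Scaling also lowered the Ampka1KO counts from 26 to 16 with PBS, from 44 to 23 with MSUc and from 18 to 9 for the response, since it moves the median of all genes. With only the compared groups fitted, MSUc at 2 h went from 13 to 3, Tfe3KO against Tfe3WT from 2 to 1 with MSUc, from 1 to 3 with CPPD and from 5 to 1 with silica, and metformin with MSUc from 17 to 10, with fewer libraries in the fit. Without the filter on low values the Tfe3KO count with silica was 3. The replicate block called 2 members for Tfe3KO against Tfe3WT with PBS in place of 0 and 1 in place of 0 for the MSUc response; it moved no other count by over 1.5 times. In the time course, same-numbered libraries deviated in opposite directions from 30 min on (r -0.417 to -0.552), and a block with crossed numbers, chosen after seeing the data, called 1 member at 1 h, 19 at 2 h and 36 at 5 h. Counting the TfebWT library by its treatment field left 0 of 21 members called for MSUc in TfebWT and 0 of 1 for TfebTg with MSUc. Leaving out single libraries gave 0 to 1 at 30 min (1 without PBS replicate 2), 7 to 11 at 2 h, 10 to 17 for TfebWT (10 without PBS replicate 2), 11 to 23 for SGC0946 with MSUc (11 without SGC0946 replicate 1 or 3) and 10 to 21 for metformin with MSUc (10 without vehicle replicate 2). For Tfe3KO against Tfe3WT it gave 0 to 2 with PBS (2 without Tfe3KO replicate 1), 1 to 2 with MSUc and 1 to 4 with silica (1 without Tfe3WT replicate 1), and for the responses 0 to 1 (MSUc), 0 to 1 (CPPD) and 0 to 3 (silica, 3 without Tfe3KO PBS replicate 1). Without all Tfe3KO replicate 1 libraries, whose fibroblast marker sums were low, chosen after seeing the data, the counts were 2 with PBS, 1 with MSUc and 1 for the silica response. Unless stated, the cause was not tested. Shallow libraries (from 2.12 M reads) limit low genes such as Psmg1 to Psmg4.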
